A study of Homo sapiens with 21 samples.

Results

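Wild-type RUNX1 was compared between Jurkat cells whose other RUNX1 product was a truncated protein, either R232fs or Y287X. The comparison rests on 4 of the 14 peak lists analysed from a series of 21 samples: 2 TY1 lists of R232fs clones and 2 TY1 lists of Y287X clones, chosen by genotype and tag alone. Jurkat is an established human T-cell acute lymphoblastic leukaemia line. The series placed epitope tags on the products of the RUNX1 gene and mapped them by chromatin immunoprecipitation and sequencing. In the R232fs clones (a frameshift) and the Y287X clones (a stop codon) the HA tag marked the mutant protein and the TY1 tag the wild-type protein, so each TY1 list shows where the wild-type protein sat while the truncated one was in the same nucleus. All 4 libraries came from untreated cells, fixed for 15 min and stopped for 5 min, and precipitated with an anti-TY1 antibody. Each mutant line is a single clone, and replicates 1 and 2 of a genotype are different clones, called clone 1 and clone 2 here. With 2 clones per genotype, every p-value rests on differences between single clones. Permutation p-values count arrangements of the lists, and those of the moderated test (limma) rest largely on clone spread pooled across regions. What else a replicate number marks is not stated in the labels. The other lists, used only for comparison, were the 4 HA lists of the same clones and the HA and TY1 lists of G365R clones (a missense change; 2 clones) and of a WT clone in which both tags marked wild-type protein.

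RUNX1 is a transcription factor of blood development that binds DNA through its Runt domain together with the non-DNA-binding partner CBFB. In T-cell leukaemias of this type it acts in a circuit with TAL1, GATA3, MYB and E-proteins, and it is mutated in several leukaemias. Frameshift and stop mutations downstream of the Runt domain remove parts of the C-terminal transactivation region, while the other allele can still give wild-type protein.

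Fold values of the 4 TY1 lists reached higher than those of G365R and WT cells, and for that reason levels are not compared across those sets. Highest fold enrichments of the 4 TY1 lists were 209.2 to 368.6, against 61.0 to 89.3 in the 6 G365R and WT lists. Peak lists carry no read depth. The commonest local background solved from the caller's values, the nearest measure of depth, was 2.83 and 3.53 fragments per base in R232fs clones 1 and 2 and 3.43 and 3.72 in Y287X clones 1 and 2. In each genotype the clone with the higher background had the longer list, and the part of depth in the list lengths was not tested.

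The Y287X lists were on average longer, but the clones of each genotype differed by as much as the genotypes did. R232fs clone 1 had 40112 peaks on chromosomes 1 to 22 and X and clone 2 had 59140. Y287X clone 1 had 49749 and clone 2 had 81561. The groups overlapped: in both genotypes clone 2 had the longer list. The means were 49626 ± 13455 (SD, n = 2) for R232fs and 65655 ± 22495 for Y287X, a ratio of 0.765 (two-sided exact permutation p = 0.667, where the smallest p that 6 arrangements of 4 lists allow is 0.333).

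The number of highly enriched peaks differed little between the genotype means. Fold enrichment is the authors' ratio of the summit's pileup to its local background, and peaks of fold 5 or more numbered 18715 and 22333 in R232fs clones 1 and 2 and 15773 and 24481 in Y287X clones 1 and 2. The R232fs values lay inside the range of the Y287X values. The means were 20524 ± 2558 and 20127 ± 6157 (SD, n = 2), a ratio of 1.04 (exact permutation p = 1.0). Leaving out R232fs clone 2 or Y287X clone 1 turned the sign of this difference, which became -0.07 and -0.26 on the log2 scale. Median fold was 4.75 and 4.19 in the R232fs lists and 3.84 and 3.78 in the Y287X lists, so the genotypes did not overlap on this measure, at the smallest p the design allows (exact permutation p = 0.333). R232fs clone 2, with the longer list of the 2 in the middle, had a higher median fold than Y287X clone 1. Median peak width was 485 and 476 bp in R232fs and 466 and 454 bp in Y287X, a mean difference of 20.5 bp (exact permutation p = 0.333) that turned to -62.5 bp when all lists were taken at equal length.

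Windows of 100 bp on each side of every summit were merged across the 4 lists into 109907 regions, and a list held a region when one of its summits lay there. All 4 lists held 24513 of them (22.3%). Only 615 regions (0.56%) were in both R232fs lists and neither Y287X list, and 3658 (3.33%) were in both Y287X lists and neither R232fs list. These are called R232fs-only and Y287X-only regions below. More regions followed the replicate number: 2482 were in the first clone of each genotype and neither second clone, and 10473 in both second clones and neither first clone. The remaining splits of the lists into pairs gave 1577 regions (R232fs clone 1 with Y287X clone 2) and 1314 regions (R232fs clone 2 with Y287X clone 1), so the R232fs-only class was the smallest of the 6 classes of 2 lists. Y287X clone 2, the longest list, held 28513 regions alone.

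With every list cut to its 40112 strongest peaks by −log10 p, the length of the shortest list, the number of R232fs-only regions rose to 855 (1.3% of 65916 regions) and that of Y287X-only regions fell to 1450 (2.2%). Regions of all 4 lists numbered 21318 (32.3%). First-clones-only and second-clones-only regions then numbered 3425 and 3594, nearly the same, and both remained more frequent than either genotype class. When the lists were cut by fold instead, the counts were 2313 R232fs-only, 2211 Y287X-only, 3244 first-clones-only and 2967 second-clones-only regions.

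**Figure D1:**
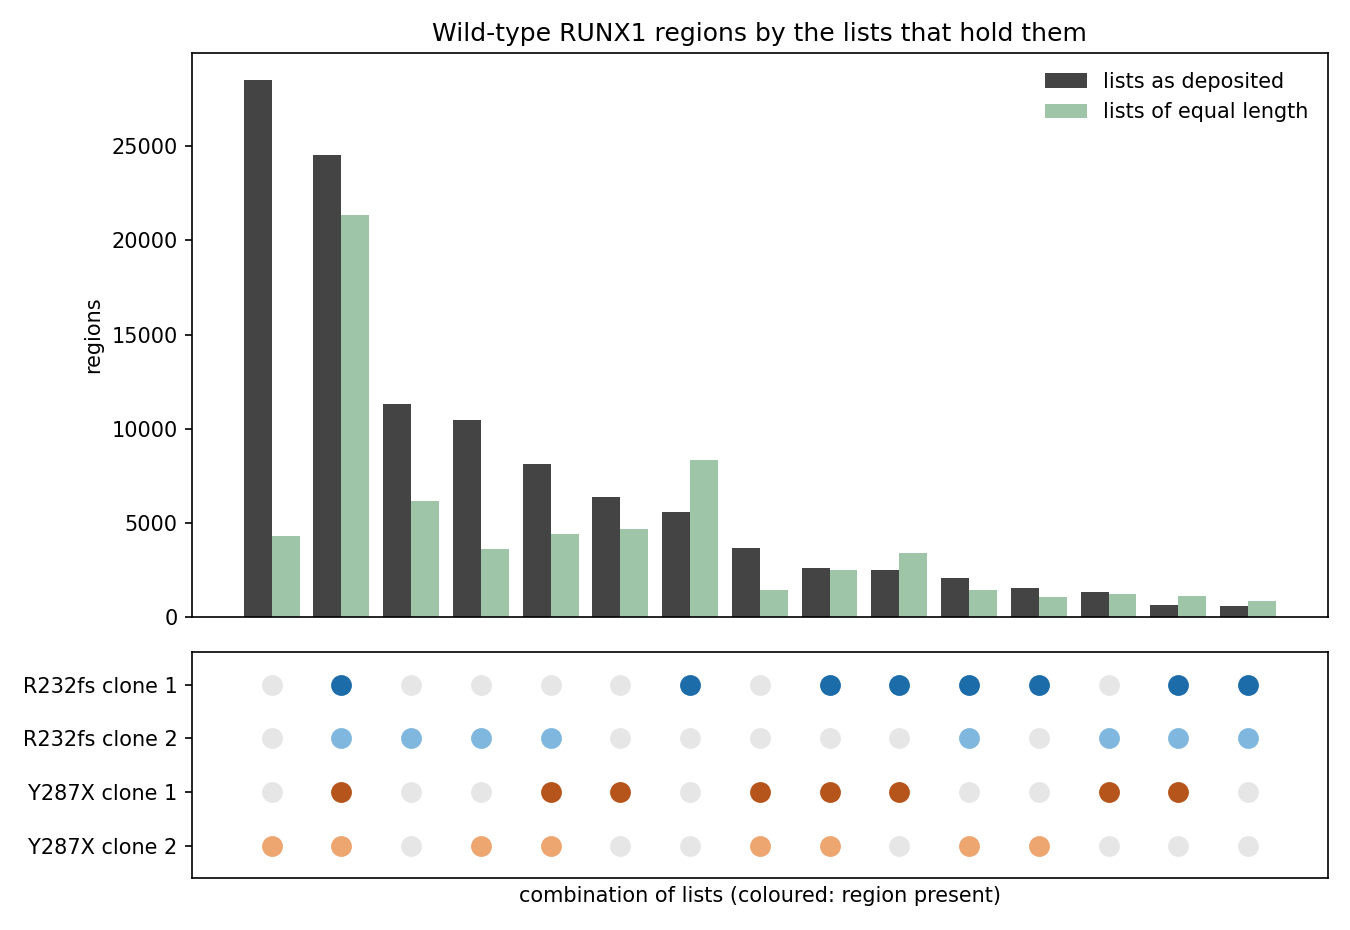
Number of regions (vertical axis) in each of the 15 combinations of the 4 TY1 lists, for lists as deposited (dark bars) and lists of equal length (light bars); coloured dots under a bar mark the lists that hold the regions. The combination of all 4 lists has 24513 and 21318 regions, and the R232fs-only combination, at the right end, has 615 and 855.

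Strong sites were shared more often than weak ones. Of the 1000 strongest regions of each list, 94.4% (R232fs clone 1), 99.6% (R232fs clone 2), 98.2% (Y287X clone 1) and 99.4% (Y287X clone 2) were in all 4 lists. Among the 10000 regions that follow the 30000 strongest the shares were 27.6%, 23.3%, 22.9% and 18.5%. R232fs clone 1 had the lowest share at the top: 94.7% of its 1000 strongest regions were in R232fs clone 2, 96.2% in Y287X clone 2 and 99.6% in Y287X clone 1.

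Clones of one genotype were not more alike than clones of different genotypes. The Jaccard index, the number of shared regions divided by the number in either list, was 0.391 between the R232fs clones and 0.421 between the Y287X clones. Between genotypes it was 0.508 for the first clones, 0.474 for the second clones, 0.466 for R232fs clone 2 with Y287X clone 1 and 0.339 for R232fs clone 1 with Y287X clone 2. Thus 3 of the 4 pairs that cross genotypes exceeded both pairs within a genotype. Within-genotype pairs were lower by a mean of -0.0407 (one-sided exact permutation of the 3 ways to pair 4 clones, p = 0.667, smallest possible 0.333). The index depends on list length, and R232fs clone 1 and Y287X clone 2, the lowest pair, are the shortest and the longest list.

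At equal length the order changed in part. The second clones became the most alike pair at 0.622, followed by the Y287X clones at 0.587, the first clones at 0.547 and R232fs clone 2 with Y287X clone 1 at 0.538. R232fs clone 1 with Y287X clone 2 reached 0.490, and the R232fs clones were the least alike at 0.446. Of their equal-length lists the R232fs clones shared 61.7% of regions, whereas R232fs clone 2 shared 76.7% with Y287X clone 2. Ranking by fold for the cut brought the difference between the means of within-genotype and between-genotype pairs to 0.000381 (exact permutation p = 0.667). Single pairs still ranged from 0.436 (R232fs clone 1 with Y287X clone 2) to 0.495 (the first clones).

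**Figure D2:**
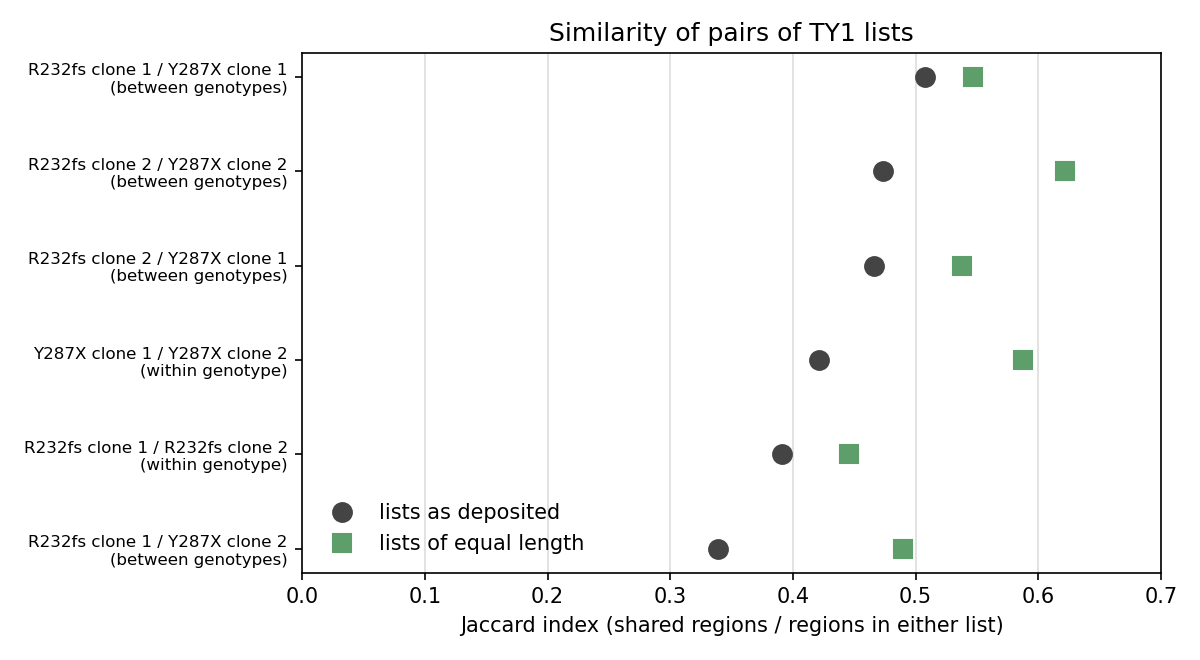
Jaccard index (horizontal axis, 0 to 0.7) of the 6 pairs of TY1 lists, as deposited (circles) and at equal length (squares); each point is 1 pair of clones. The pair of first clones is highest as deposited (0.508), the pair of second clones at equal length (0.622), and both cross the genotypes.

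Summits of lists that shared a region lay close together, in part by construction. A region is shared only where windows of 100 bp on each side of the summits merge, so summits displaced farther count as not shared. In regions of all 4 lists the median distance between summits was 26 bp between the R232fs clones and 22 bp between the Y287X clones. Between genotypes it was 18 bp for the second clones, 22 bp for the first clones, 23 bp for R232fs clone 2 with Y287X clone 1 and 25 bp for R232fs clone 1 with Y287X clone 2. Between 71.7% and 82.9% of summit pairs lay within 50 bp. With whole peaks merged instead, the median distances were 19 to 29 bp, the means 51.9 to 76.1 bp, and 66.8% to 79.3% of pairs lay within 50 bp. Pairs within a genotype were 2 bp farther apart than pairs between genotypes (one-sided exact permutation p = 1.0), and 1 bp closer without R232fs clone 2.

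The strongest sites of wild-type RUNX1 common to both genotypes lay far above the median fold. The 5 regions with the best lowest rank over the 4 lists are given by hg19 position, counted from 1. On chromosome 9 at 129748177 to 129748407 the fold was 194.4 and 156.4 in the R232fs clones and 185.5 and 192.3 in the Y287X clones. On chromosome 22 at 29351864 to 29352080 it was 229.9 and 136.2 against 171.5 and 259.7. The folds of the genotypes overlapped at both of these regions. On chromosome 11 at 36706527 to 36706764 the fold was 200.7 and 142.3 in R232fs and 124.9 and 218.8 in Y287X. At 85464006 to 85464236 of the same chromosome it was 165.7 and 112.9 against 140.1 and 166.0. These 4 regions were also in all 10 other lists of the series, at 19.0-fold or more.

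The region ranked first differed from them in the rest of the series. On chromosome 2 at 11094004 to 11094212 the fold was 169.5 and 199.2 in the R232fs and 209.2 and 368.6 in the Y287X TY1 lists, and 174.4 to 253.3 in the 4 HA lists of the same clones. Both R232fs TY1 folds lay below both Y287X TY1 folds. The region was absent from all 3 TY1 lists of G365R and WT cells and had a fold of 9.61 to 17.5 in their HA lists. Its percentile by fold was at least 99.9875 in all 8 lists of the R232fs and Y287X clones, and 91.0 to 97.1 in the G365R and WT HA lists.

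The regions of one genotype were weaker than regions of all 4 lists, but not weaker than every other class of 2 lists. Median fold was 5.65 in regions of all 4 lists, 4.18 in R232fs-only regions and 3.77 in Y287X-only regions. Fold levels differ between lists. By percentile of fold within the holding lists the medians were 70.5, 43.9 and 48.6, which reverses the order of the genotype classes. Median fold was 5.43 in first-clones-only and 3.21 in second-clones-only regions. In the remaining classes it was 4.03 (R232fs clone 1 with Y287X clone 2) and 3.43 (R232fs clone 2 with Y287X clone 1). A fold of 10 or more in every holding list was found at 8 of 615 R232fs-only regions, 6 of 3658 Y287X-only regions and 2732 of 24513 regions of all 4 lists. The count was 267 of 2482 for first-clones-only and 46 of 10473 for second-clones-only regions. A fold of 20 or more in both holding lists was found at 0 R232fs-only regions, 1 Y287X-only region, 62 first-clones-only and 7 second-clones-only regions.

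A summit missing from a list does not mean that the list had no peak over the region. No peak of the other genotype overlapped 408 R232fs-only regions (66.3%) and 3033 Y287X-only regions (82.9%). At equal length, when the whole length of the deposited peaks of the other genotype was considered, 175 of 855 (20.5%) and 614 of 1450 (42.3%) were free of one. The median distance to the nearest region of all 4 lists was 21035 bp for R232fs-only and 18603 bp for Y287X-only regions, within the range of first-clones-only (23026 bp) and second-clones-only regions (17817 bp).

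The 6 strongest R232fs-only regions at equal length included 2 with no peak in either Y287X TY1 list as deposited. The first, on chromosome 15 at 94831099 to 94831358, had a fold of 20.1 and 13.2 in the TY1 lists and 11.997 and 10.8 in the HA lists of R232fs clones 1 and 2. None of the 4 Y287X lists had a summit there, and the nearest Y287X TY1 summits were 17310 and 36308 bp away. It was nonetheless in all 6 G365R and WT lists at folds of 5.998 to 14.3, so that its absence was seen in the Y287X cells alone.

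On chromosome 12 at 93068947 to 93069177 the fold was 11.8 and 12.1 in the R232fs TY1 lists, with no Y287X TY1 peak, but both Y287X HA lists held the region at 4.37 and 4.89. On chromosome 20 at 39462883 to 39463086 it was 12.9 and 16.6, and a peak of Y287X clone 2 overlapped with its summit 260 bp from the region's centre. On chromosome 2 at 75004597 to 75004880 it was 12.2 and 14.1, and Y287X clone 2 as deposited had a summit there of fold 4.55, below its equal-length cut. Thus 2 of these 3 regions were held weakly by a Y287X TY1 list or covered by one of its peaks.

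At the other 2 regions both Y287X lists had peaks whose summits lay aside. On chromosome 7 at 150606337 to 150606548 the R232fs folds were 11.7 and 13.0, and the Y287X summits lay 752 and 651 bp away at folds of 5.04 and 4.397. Neither R232fs HA list held this region, and the HA list of Y287X clone 2 held it at 11.2. On chromosome 2 at 87754776 to 87755002 they were 11.3 and 13.7, with Y287X summits of fold 7.72 and 20.4 at 627 and 632 bp. These are displaced summits inside peaks of both genotypes rather than sites with no Y287X signal.

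Of the 6 strongest Y287X-only regions each was overlapped by a peak of at least 1 R232fs TY1 list. The first, on chromosome 22 at 49308540 to 49308796, had a fold of 38.4 and 29.7 in Y287X clones 1 and 2. In G365R and WT cells all 6 lists held it at folds of 25.1 to 38.8, whereas none of the 4 R232fs lists had a summit there and the nearest summit of R232fs clone 1 was 966 bp away at a fold of 14.9. The HA list of Y287X clone 2 held it at 13.6, but that of Y287X clone 1 had no summit there. Both sites at the head of the genotype classes were therefore held by every G365R and WT list, and neither had a summit in any of the 4 lists of the opposite truncating genotype.

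On chromosome 11 at 124792916 to 124793131 the Y287X folds were 13.3 and 27.4, with R232fs summits of fold 8.79 and 19.1 at 340 and 379 bp. On chromosome 14 at 25162038 to 25162270 they were 12.3 and 12.7, while R232fs clone 2 had a summit of fold 4.28 there in its deposited list and R232fs clone 1 a summit of fold 29.1 at 240 bp. On chromosome 19 at 13210985 to 13211201 the folds were 11.5 and 15.6, and R232fs summits lay 756 and 766 bp away. These regions sat in peaks that the R232fs lists centred elsewhere or held weakly.

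The last 2 ranked lowest of the 6 by the lower of their 2 folds. On chromosome 15 at 64795542 to 64795766 the Y287X folds were 11.1 and 11.4, and the R232fs HA lists held the region at 10.98 and 4.39, with R232fs TY1 summits of fold 12.3 and 3.40 at 230 and 505 bp. On chromosome 12 at 130539965 to 130540201 they were 10.6 and 14.4, with R232fs summits 713 and 705 bp away at folds of 9.69 and 12.7. With windows of 250 bp, 4 of the 6 R232fs-only and 3 of the 6 Y287X-only regions remained of one genotype. With whole peaks merged, 2 and 0 did.

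The HA lists, which mark the truncated protein of the same clones, were not used to define these classes. As deposited, the R232fs HA lists held 58.2% and 60.5% of R232fs-only regions (clones 1 and 2), and the Y287X HA lists 26.5% and 29.3%. The groups did not overlap, while over all 109907 regions the shares were 47.6% and 50.2% against 37.5% and 46.8%. For Y287X-only regions the R232fs HA lists held 45.7% and 35.4% and the Y287X HA lists 41.5% and 47.8%, which overlap.

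With the HA lists also cut to one length of 51892 peaks, both classes recurred more in the HA lists of their own genotype. The R232fs HA lists then held 47.6% and 46.5% of R232fs-only regions and the Y287X HA lists 26.5% and 23.1%. The Y287X HA lists held 41.5% and 38.9% of Y287X-only regions and the R232fs HA lists 31.7% and 20.8%. Over all regions the equal-length HA lists held 39.5% and 40.7% (R232fs) and 37.5% and 41.5% (Y287X), so the lists as a whole differed less between genotypes than these classes did. HA and TY1 lists of a clone come from the same cells, and 2 lists against 2 allow no p below 0.333. At equal TY1 length the R232fs-only shares were 72.5% and 80% against 37.4% and 48.8%. The Y287X-only shares, 59.5% and 73.2% against 61.6% and 51.5%, again overlapped, while over all regions of this setting the R232fs HA lists held 66.3% and 65.5% and the Y287X HA lists 56.2% and 63.8%. With the TY1 and HA lists both cut, the Y287X-only shares were 59.5% and 69.0% against 50.8% and 39.2%, without overlap, beside 56.2% and 60.4% against 59.1% and 59.4% over all regions.

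Regions with the full genotype pattern under both tags were few. Of the R232fs-only regions 107 (17.4%) were in both R232fs HA lists and neither Y287X HA list, and 4 (0.65%) showed the reverse. Of the Y287X-only regions 183 (5.00%) were in both Y287X HA lists and neither R232fs HA list, and 94 (2.57%) showed the reverse. The R232fs pattern and its reverse were found at 6.88% and 0.90% of second-clones-only regions. The shares were 1.01% and 0.56% of first-clones-only regions, and 0.66% and 0.79% of regions of all 4 lists. An excess of the R232fs pattern was thus also present in second-clones-only regions, which were not chosen by genotype. The deposited HA lists had 77691 and 86433 peaks in R232fs clones 1 and 2 and 51892 and 67594 in Y287X clones 1 and 2. The part of list length in these counts was not tested, and their shares over all 109907 regions are not given. The TY1 lists of G365R clones 1 and 2 and of WT held 43.6%, 45.5% and 35.9% of R232fs-only regions and 31.8%, 32.0% and 33.1% of Y287X-only regions, beside 40.5%, 38.7% and 39.1% of all 109907 regions. In none of the 10 other lists were 47 R232fs-only (7.64%) and 436 Y287X-only regions (11.9%), beside 3.18% of first-clones-only and 8.22% of second-clones-only regions.

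**Figure D3:**
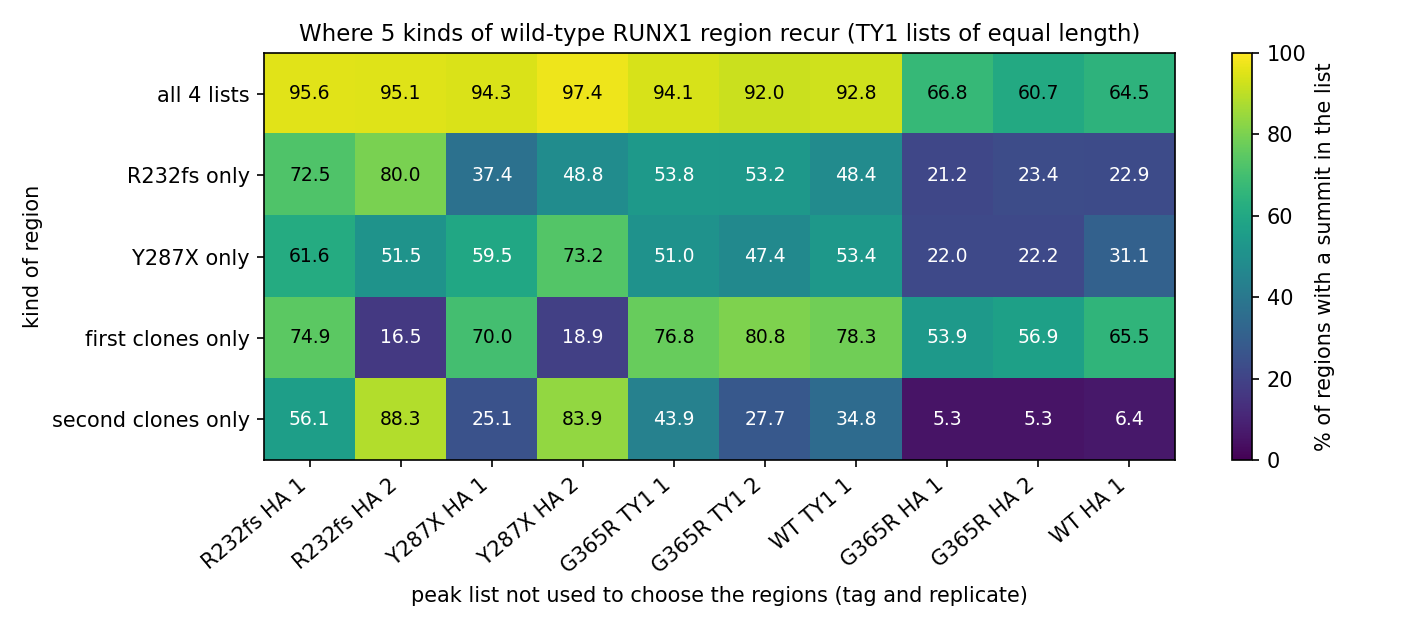
Percentage of regions (colour and printed value) of each kind, at equal TY1 length (rows), that had a summit in each of the 10 lists not used to define the kinds (columns, by genotype, tag and replicate). R232fs-only regions reach 72.5% and 80% in the R232fs HA lists, and first-clones-only regions fall to 16.5% and 18.9% in the HA lists of the second clones.

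The regions that followed the replicate number were also split under the HA tag of the R232fs and Y287X clones, most clearly the first-clones-only regions. Of the 2482 first-clones-only regions as deposited, the HA lists of the first clones held 68.2% (R232fs) and 63.2% (Y287X) and those of the second clones 7.17% and 7.74%. The WT TY1 list held 77.7%. Of the 10473 second-clones-only regions the HA lists of the second clones held 75.5% (R232fs) and 60.5% (Y287X), those of the first clones 43.8% and 17.5%, and the WT TY1 list 20.3%. Over all 109907 regions the HA lists of the first clones held 47.6% (R232fs) and 37.5% (Y287X). Those of the second clones held 50.2% and 46.8%, and the WT TY1 list 39.1%. The HA list of R232fs clone 1 thus held second-clones-only regions nearly as often as all regions. G365R clones did not split in this way: their TY1 lists (clones 1 and 2) held 75.1% and 79.0% of first-clones-only and 25.9% and 18.6% of second-clones-only regions. Whether the clones of a number were grown or processed together was not tested.

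Of the 2482 first-clones-only regions, 648 were in all 10 lists that are not of the second clones, and 1029 had a fold of 5 or more in both first-clone TY1 lists. At least 1 G365R or WT TY1 list held 87.7% of the 2482, and all 3 held 65.4%. For regions of all 4 TY1 lists these shares were 96.3% and 82.8%. All 4 lists of the second clones (both tags, both genotypes) lacked a summit at 2188 first-clones-only regions. Of the 62 regions with a fold of 20 or more in both first-clone TY1 lists, 58 were in all 10 of those lists, and at 25 of the 58 no peak of a second-clone list overlapped. In the opposite direction 7 regions had that fold in both second-clone TY1 lists and in neither first clone. Of these, 2 were in no list outside the second clones, and peaks of the first clones overlapped both.

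The 4 strongest of these regions were chosen after their values were seen. On chromosome 12 at 89638994 to 89639196 the TY1 fold was 105.8 in R232fs clone 1 and 53.3 in Y287X clone 1, and the HA folds of these clones were 18.5 and 19.2. The G365R and WT lists held it at 28.1 to 50.2, and no list of either second clone had a peak there. On chromosome 1 at 167079949 to 167080158 the first-clone TY1 folds were 70.8 and 44.2, on chromosome 2 at 236179625 to 236179858 they were 41.3 and 70.2, and on chromosome 9 at 120588351 to 120588559 they were 47.3 and 41.7. Each was in all 10 lists outside the second clones and overlapped no peak of the 4 second-clone lists.

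The strongest region in the second clones with no summit in the 10 other lists was also chosen after its values were seen. On chromosome 21 at 36599262 to 36599491 the TY1 fold was 22.5 in R232fs clone 2 and 33.7 in Y287X clone 2, and the HA folds were 16.1 and 21.1. A peak of a first clone overlapped it with its summit elsewhere.

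At the 24513 regions of all 4 lists, relative binding was compared by ranking the fold within each list and turning ranks into normal scores, with the SD of a list's scores as the unit. The moderated test of limma, with Benjamini-Hochberg adjustment over all 24513 regions and a threshold of 0.05, called 0 regions higher and 0 lower in R232fs (0% of regions in each direction). At an unadjusted p under 0.05 it counted 718 (2.93%), and the lowest adjusted p was 1. The scores of the genotypes did not overlap at 6096 regions (24.9%). R232fs was higher in every list pair at 3170 of these (12.9% of all) and lower at 2926 (11.9%). Power was judged on simulated scores with independent noise of the same SD (0.456) for every region and list. Even there only large shifts were recovered: 0.5% of 200 changed regions at a shift of 1, 69.5% at a shift of 2 and 100% at a shift of 3. In the data the spread was unequal (SD of clone differences 0.734 in R232fs and 0.541 in Y287X), so these shares need not hold for the data.

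Score differences were widest between the R232fs clones, and the other 3 pairs gave no order by genotype. The SD over regions was 0.734 for R232fs clone 1 minus clone 2 and 0.541 for Y287X clone 1 minus clone 2. It was 0.476 between the first clones of the genotypes and 0.651 between the second clones. The difference of genotype means had an SD of 0.385, although a mean of 2 clones varies less than a single clone. Differences beyond 1 unit numbered 3429 between the R232fs clones, 1758 between the Y287X clones, 1061 between the first clones, 2746 between the second clones and 516 (2.11%) between genotype means.

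R232fs clone 2 stood apart in its ranks. Across the 24513 regions, which share each list's depth, its scores correlated with r = 0.730 with R232fs clone 1, 0.755 with Y287X clone 1 and 0.788 with Y287X clone 2. The 3 pairs without it gave 0.854 to 0.887, highest for the first clones. Refits without either R232fs clone left 1 clone in that group, so counts and p-values of those fits are not given. At the regions named below, the score differences kept their direction in both refits. Those regions were chosen by smallest p from these lists, and their scores did not overlap between genotypes. The kept direction was therefore nearly fixed by that choice.

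**Figure D4:**
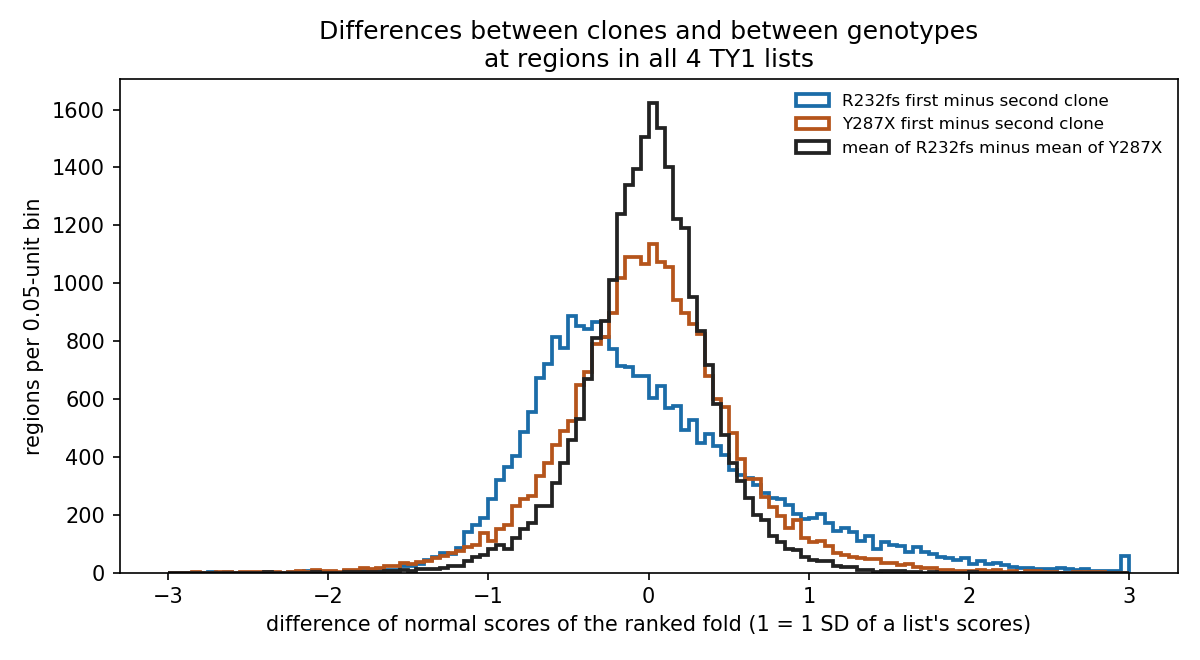
Histogram of score differences at the 24513 regions of all 4 TY1 lists (horizontal axis in SD of a list's scores, end bins hold all values beyond them; vertical axis in regions per bin) for R232fs clone 1 minus clone 2, Y287X clone 1 minus clone 2 and the mean of R232fs minus the mean of Y287X. The line of the genotype means is the narrowest (SD 0.385) and that of the R232fs clones the widest (SD 0.734).

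The regions with the smallest p did not pass the test (limma adjusted p = 1.0 for all 10 named here), and their values are given as a description. On chromosome 19 at 37081043 to 37081276 the TY1 fold was 18.3 and 21.02 in R232fs clones 1 and 2 and 5.60 and 4.76 in Y287X clones 1 and 2, a score difference of 1.59 ± 0.38 (SE). The R232fs HA lists held it at 8.13 and 10.6, one Y287X HA list held it at 6.54, and none of the G365R or WT lists had it. Both R232fs TY1 values lay above both Y287X TY1 values.

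On chromosome 1 at 157565195 to 157565442 the fold was 28.2 and 19.0 in R232fs against 6.996 and 5.30 in Y287X (difference 1.49 ± 0.38), and the HA lists gave 15.3 and 12.4 against 7.43 and 4.68. The G365R and WT lists held it at 10.4 to 21.3. On chromosome 7 at 43518852 to 43519211 the fold was 10.5 and 7.06 against 2.52 and 3.18 (difference 1.78 ± 0.44). The genotypes did not overlap at either region under either tag, although at the latter the Y287X HA list of clone 1 had no summit.

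Of the other 2 regions higher in R232fs, that on chromosome 20 at 24664355 to 24664648 had folds of 6.60 and 14.2 against 2.48 and 4.47 (difference 1.67 ± 0.44). The one with the smallest p, on chromosome 20 at 37353871 to 37354189, was weak in all 4 lists, with folds of 2.47 and 3.58 against 1.60 and 1.62 (difference 2.02 ± 0.48).

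Among regions lower in R232fs, that on chromosome 7 at 150696734 to 150697019 had folds of 3.03 and 2.46 in R232fs and 7.73 and 9.62 in Y287X (difference -2.07 ± 0.50). Its HA folds were 4.48 and 3.00 against 6.66 and 6.22, also without overlap. On chromosome 21 at 45713730 to 45713985 the TY1 folds were 3.35 and 3.52 against 13.8 and 8.69 (difference -1.72 ± 0.45), and the HA folds 3.41 and 3.28 against 6.84 and 5.89. At both regions the R232fs folds lay below the Y287X folds under either tag. The TY1 order follows from how the regions were chosen, and the HA lists come from the same clones.

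On chromosome X at 1583599 to 1583873 the TY1 folds were 2.70 and 4.49 against 8.68 and 11.6 (difference -1.51 ± 0.41). On chromosome 11 at 119554660 to 119554903 they were 1.77 and 2.01 against 3.14 and 7.03 (difference -2.09 ± 0.50), and on chromosome 18 at 108148 to 108377 they were 2.87 and 1.73 against 8.91 and 5.35 (difference -2.39 ± 0.64). At these 3 regions both R232fs TY1 values lay below both Y287X TY1 values. The HA folds overlapped on chromosome 18 (4.69 and 2.25 against 9.42 and 4.10) and on chromosome 11, where R232fs clone 2 had 1.824 and the Y287X clones 1.818 and 2.97, and R232fs clone 1 had no HA summit. On chromosome X they did not overlap (4.51 and 3.77 against 5.31 and 7.67).

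Enrichment on chromosome 19 was below the list's median in all 4 lists, as it was on chromosomes 16, 17 and 22. Chromosome X was among those above the median in all 4 lists. The size of these differences varied between clones. The median log2 fold of the regions of all 4 lists on chromosome 19, taken from each list's own median, was -0.44 and -0.10 in the R232fs clones and -0.27 and -0.27 in the Y287X clones. Chromosome 19 was the lowest chromosome of every list except R232fs clone 2, where chromosome 17 was lowest at -0.11. The highest chromosomes were 13 in R232fs clone 1 (0.22), X in R232fs clone 2 (0.08), 4 in Y287X clone 1 (0.14) and 6 in Y287X clone 2 (0.11). The clones of R232fs thus spanned the widest and the narrowest range.

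The class of the second clones was unevenly placed. It made up 15.2% of the 4280 regions of chromosome 19 and 12.3% of the 2639 of chromosome 22, against 6.98% of the 4024 of chromosome 4. First-clones-only regions were 0.84%, 0.83% and 3.31% of the same chromosomes. R232fs-only regions were 0.31% (chromosome 17) to 1.11% (chromosome 18) of a chromosome's regions and Y287X-only regions 2.43% (chromosome 19) to 4.13% (chromosome 4).

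**Figure D5:**
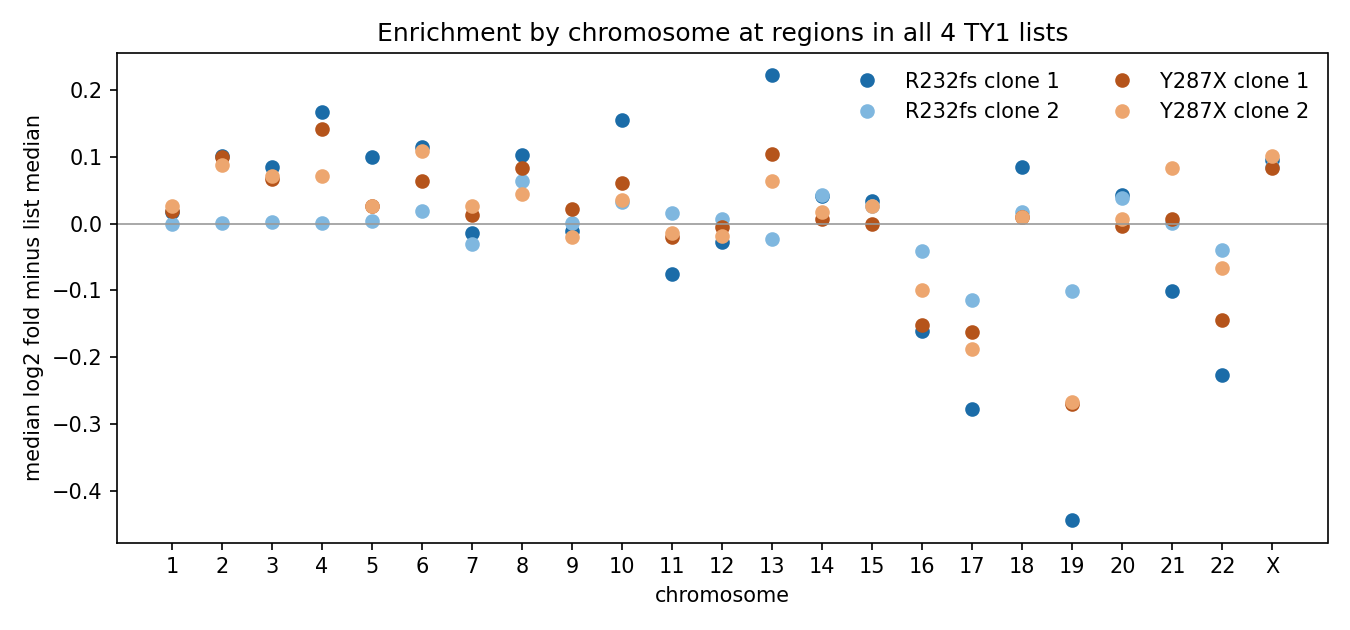
Median log2 fold of the regions of all 4 TY1 lists on each chromosome minus the median of the list (vertical axis) for the 4 lists (colours); each point is 1 list on 1 chromosome. Chromosome 19 lies at -0.44 in R232fs clone 1 and at -0.10 in R232fs clone 2, and both Y287X clones at -0.27.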

How the data were processed

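Peak lists of 4 anti-TY1 libraries were analysed, with 10 other lists of the series for comparison. The submitters' processing notes name the tools MACS2 2.2.7.1, Bowtie2 2.2.9 and CASAVA 1.8, and the genome build hg19. How the caller was set, and with which control, is not given in the sources used here. Lists were per library and not pooled. For each peak the authors deposited the −log10 of a p-value and of a q-value, a fold ratio over local background, a score (not used further) and a summit offset. Fold and p are the authors' values, used within a list to rank, filter and describe peaks. Lists hold q-values down to a −log10 q of about 1.30, per the deposited values.

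Peaks on chromosomes 1 to 22 and X were kept (1.72% to 1.98% of each TY1 list lay elsewhere). Summit windows of 100 bp on each side that overlapped by 1 bp were merged, and where a list had several summits in a region the one with the highest −log10 p gave its fold. Pileup and background were solved from fold and −log10 p with a pseudocount of 1. Tests were exact permutations of the lists and limma 3.58.1 in R 4.3.3 (eBayes with trend), checked on simulated data. Other steps used Python 3.11.15, numpy 2.4.6, pandas 2.3.3, scipy 1.17.1 and matplotlib 3.10.9. Intervals for counting error were not computed, since read depth is unknown.

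Named regions were the 5 of all 4 lists with the best lowest percentile of fold, the 6 of each genotype class at equal length with the highest lower fold, and, as fewer than 3 passed limma in a direction, the 5 with the smallest p in each direction. Members and rules were chosen with earlier results of these data known. Alternatives were other windows, thresholds, list lengths, rank measures, sets of lists and leaving out each list. No list of artefact-prone regions was applied. The gene and promoter tables at hand are of another build than the lists, so gene lists and motifs were left out and regions are named by position.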

Additional observations from a re-analysis of the deposited data

How the results depend on the processing

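Genotype counts depend on list length and on single lists. Leaving out 1 list at a time gave 1288 to 11999 R232fs-only and 6245 to 32408 Y287X-only regions, since a class then rests on fewer lists. Y287X-only regions numbered 1450 at equal length by −log10 p, 2211 by fold and 1871 at a −log10 q of 5 or more, and R232fs-only regions 2313 at equal length by fold. The log2 ratio of peaks of fold 5 or more ranged from -0.26 to 0.37 with 1 list left out, and the width difference was -62.5 bp at equal length and -40.0 bp at a −log10 q of 5 or more. The similarity difference was 0.000381 at equal length by fold, and the summit distance difference -1 to 4 bp with 1 list left out. The cause was not tested.

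The mean share of R232fs-only regions in the R232fs HA lists (59.3%) was 76.3% at equal TY1 length and 47.1% at equal HA length, and in the Y287X HA lists (27.9%) 43.1% and 24.8%. For Y287X-only regions it was 40.5%, 56.6% and 26.2% in the R232fs HA lists, and 44.6% and 66.3% in the Y287X HA lists with lists as deposited and at equal TY1 length. These settings were chosen after seeing the data.

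The replicate number as a block, fitted in limma, gave 13 calls (0.053% of 24513 regions). Of these, 2 were higher and 11 lower in R232fs (lowest limma adjusted p 0.012), and 4 were among the 10 named regions. The first minus second clone differences of the genotypes correlated across regions with r = 0.156, but only 2 pairs exist and the labels do not say what a number marks, so the numbers were not taken to pair the lists, and whether clones of a number share a batch was not tested. In every other limma fit that kept all 4 TY1 lists, with other windows, ranks, thresholds, added lists or a random clone effect, 0 regions were called. An unadjusted limma p under 0.05 was found at 1.96% (ranks of −log10 p) to 5.56% (all 14 lists) of the regions tested. The lowest limma adjusted p of these fits was 0.478. Fits with a list left out keep 1 clone in a group, so only their direction is used. Of 154 refits of named regions 0 changed direction, and a further 36 did not hold the region. The refits use the TY1 lists from which these regions were chosen by smallest p, so the kept direction was largely fixed in advance. Depth is not in the files, and 2 clones per genotype limit every p.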
